A study of Cricetulus griseus with 16 samples.

Results

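The ZFAND genes encode a small family of proteins that carry AN1-type zinc fingers. Several of them bind ubiquitin, the proteasome (the protease complex that destroys ubiquitin-tagged proteins) or VCP, also called p97, the ATPase that pulls tagged proteins out of complexes and membranes. By its zinc fingers the family divides into members without an A20-type finger (Zfand1, Zfand2a, Zfand2b and Zfand4) and members with one. The latter, Zfand3, Zfand5 and Zfand6, join an A20-type finger to an AN1 finger. ZFAND2A, also known as AIRAP, was named for its induction by arsenite, binds the proteasome, and is a known heat-inducible gene under heat shock factor 1 (HSF1), the transcription factor of the heat shock response. ZFAND1 is known for bringing VCP and the proteasome to stress granules, the cytoplasmic bodies of stalled mRNA that form under stress.

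The members were taken by gene name from the count matrix, and 7 of the 7 names were found among its 20824 genes. The family was chosen by the rise of Zfand2a under heat in these same samples, where it is among the strongest heat-induced genes. The heat response of Zfand2a is therefore given as a description with no test, and it supports nothing further. The tests concern the 6 other members. The files list the members as Zfand1 (ENSCGRG00001014683), Zfand2a (ENSCGRG00001018973), Zfand2b (ENSCGRG00001023088), Zfand3 (ENSCGRG00001000713), Zfand4 (ENSCGRG00001023303), Zfand5 (ENSCGRG00001013083) and Zfand6 (ENSCGRG00001009229).

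RNA was sequenced from CHO cells, an established adherent line derived from Chinese hamster ovary (the ATCC line CCL-61), grown in Ham's F-12K medium with fetal bovine serum in all groups. There were 4 groups of 4 libraries, lettered A to D and described as biological repeats: cells kept at 37 °C, cells held at 40 °C for 1 h, cells held at 40 °C for 6 h, and cells held at 42.5 °C for 1 h. No group in the RNA comparison carried another agent or a gene modification, and the study asked how the dose of heat changes the transcriptome.

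Library totals lay between 10504192 and 14668365 counts. The genes Vim, Actb and Fut8, which CHO cells express, were detected in all libraries, with Vim between 1823 and 2684 CPM (counts per 1000000 counts of the library), and the blood and epithelial markers Ptprc, Cd3e and Epcam never exceeded 1 count. The glycosylation genes Mgat3 and St6gal1, which are silent in CHO cells, and the endothelial marker Pecam1 reached at most 2, 0 and 4 counts. One library stood apart: in 37 °C replicate D, 17.8% of 10565 genes differed by 1.5-fold or more from the other controls, against 1.27% to 1.51% in replicates A to C. The study left it out, so the comparisons use 15 libraries, and values with all 4 controls are given beside the results they change most.

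Levels are given as CPM after TMM scaling, which corrects for differences in library composition. A CPM compares libraries for 1 gene. It is not set between genes here, because a longer transcript collects more reads. A gene was called when edgeR's quasi-likelihood test gave a Benjamini-Hochberg adjusted p under 0.05 over all genes tested and the fold change was at least 1.5 in either direction. All 7 members had enough counts to be tested in each comparison. Whether the libraries of groups overlap is stated for single genes. The share of all genes without overlap was not computed, so a separation is not read as particular to a member.

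Zfand2a was the member with the large response to heat, and its level differed with the temperature and with the time of exposure. Its CPM at 37 °C was 19.7, 18.6 and 18.5 in replicates A to C, and 19.5 in the left-out replicate D. Cells held at 40 °C for 1 h had 93.9, 33.7, 85.1 and 40.2 CPM in replicates A to D. All 4 heated libraries lay above all controls, and they fell apart into a higher pair, A and C, and a lower pair, B and D.

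After 6 h at 40 °C the Zfand2a level was 13.8, 17.3, 17.5 and 18.9 CPM, which overlapped the control range, with 3 of the 4 libraries below the control mean. At 42.5 °C it was 281, 411, 262 and 566 CPM. Even the lowest library at 42.5 °C was above the highest library of any other group.

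The group means were 18.9 ± 0.692 CPM (SD, n = 3) at 37 °C, 63.2 ± 30.7 CPM (n = 4) after 1 h at 40 °C, 16.9 ± 2.20 CPM (n = 4) after 6 h at 40 °C and 380 ± 140 CPM (n = 4) at 42.5 °C. The order of the groups was therefore 42.5 °C, then 40 °C for 1 h, then 37 °C, then 40 °C for 6 h, and only the last 2 in this order overlapped. The counts behind these levels were 214 to 281 reads in the used controls, 439 to 1381 after 1 h at 40 °C, 156 to 243 after 6 h, and 2700 to 7168 at 42.5 °C.

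**Figure D1:**
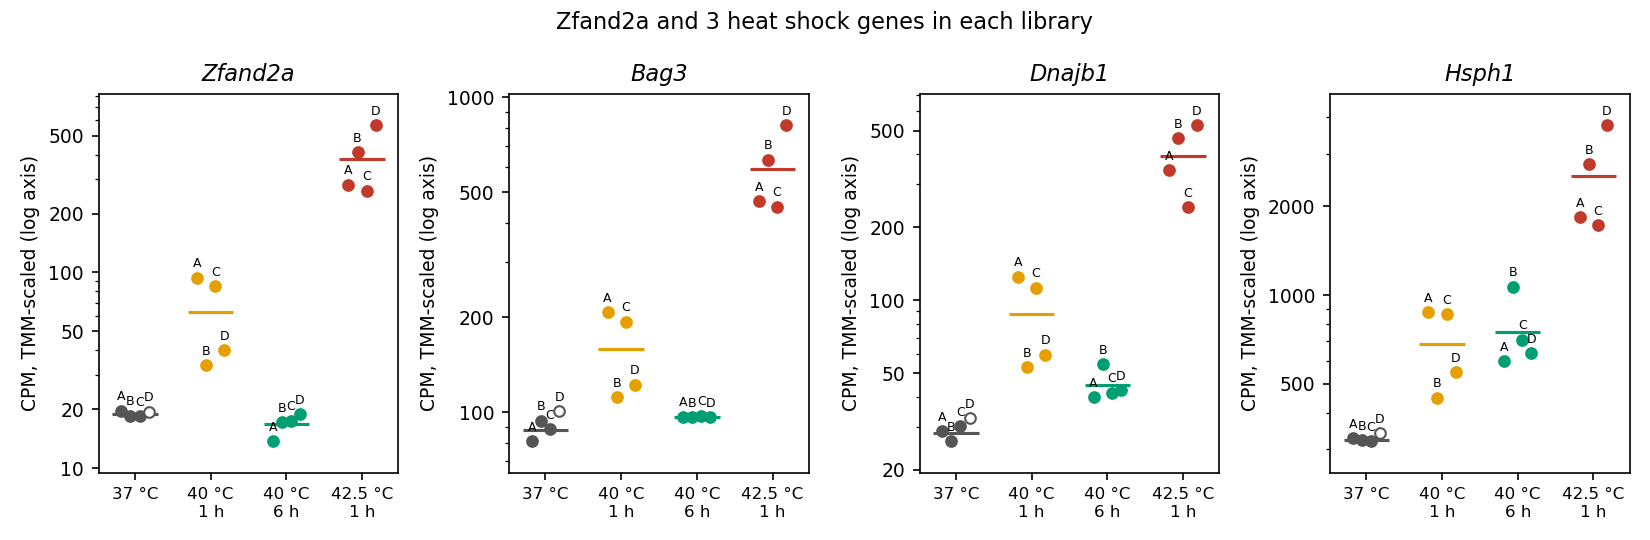
TMM-scaled CPM (log axes) of Zfand2a and of the heat shock genes Bag3, Dnajb1 and Hsph1 in each library, by group, with replicate letters. Bars are means of the used libraries and the open point is 37 °C replicate D. Zfand2a is near its control level after 6 h at 40 °C and between 262 and 566 CPM at 42.5 °C.

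Against 37 °C, the log2 fold change of Zfand2a was 1.74 ± 0.295 (SE) after 1 h at 40 °C, a 3.35-fold higher level and the second largest rise of 10494 genes. After 6 h at 40 °C it was -0.17 ± 0.0992, a fold of 0.891. At 42.5 °C it was 4.32 ± 0.241, a 19.96-fold higher level and rank 11 of 10470 genes. The 6 h group stood at 0.267 of the 1 h group at 40 °C, a log2 difference of -1.90 ± 0.261 and the lowest value of 10439 genes. These ranks belong to the values for which the gene was chosen.

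The spread of Zfand2a between cultures was much wider in the groups heated for 1 h than in the others. The SD of its log2 CPM was 0.75 after 1 h at 40 °C and 0.52 at 42.5 °C, against 0.05 at 37 °C and 0.20 after 6 h at 40 °C. The median gene had an SD of 0.09 in each of the groups heated for 1 h. Of 10627 genes, 25 had a wider spread than Zfand2a after 1 h at 40 °C and 171 at 42.5 °C. Set against counting error alone, the variance of its counts was 197 times that of Poisson sampling after 1 h at 40 °C and 598 times at 42.5 °C, but 0.342 times at 37 °C.

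In the groups heated for 1 h, the libraries in which Zfand2a was high were those in which Bag3, Dnajb1 and Hsph1 were high. Bag3 and Dnajb1 are among the genes most like Zfand2a in these same libraries, so their shared order largely follows from that likeness. Bag3 encodes a co-chaperone of Hsp70 that links it to autophagy. Its CPM after 1 h at 40 °C was 208, 112, 194 and 122 in replicates A to D, and at 42.5 °C it was 468, 633, 449 and 817. Dnajb1 encodes an Hsp40 co-chaperone, with 125, 52.9, 113 and 59.7 CPM after 1 h at 40 °C and 343, 465, 242 and 526 CPM at 42.5 °C. Hsph1, an Hsp110 chaperone, had 874, 449, 861 and 549 CPM after 1 h at 40 °C and 1838, 2772, 1728 and 3770 CPM at 42.5 °C.

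From high to low, all 4 of these genes had the order A, C, D, B after 1 h at 40 °C and D, B, A, C at 42.5 °C. A and C were thus the high libraries in one group and the low libraries in the other. After 6 h at 40 °C the orders of the 4 genes differed from each other. Bag3 there was at 96.2 to 97.3 CPM in all 4 libraries. Other heat shock genes did not all share the order after 1 h at 40 °C, where Hspb1, Dnaja1 and Hsp90ab1 were higher in C than in A.

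**Figure D2:**
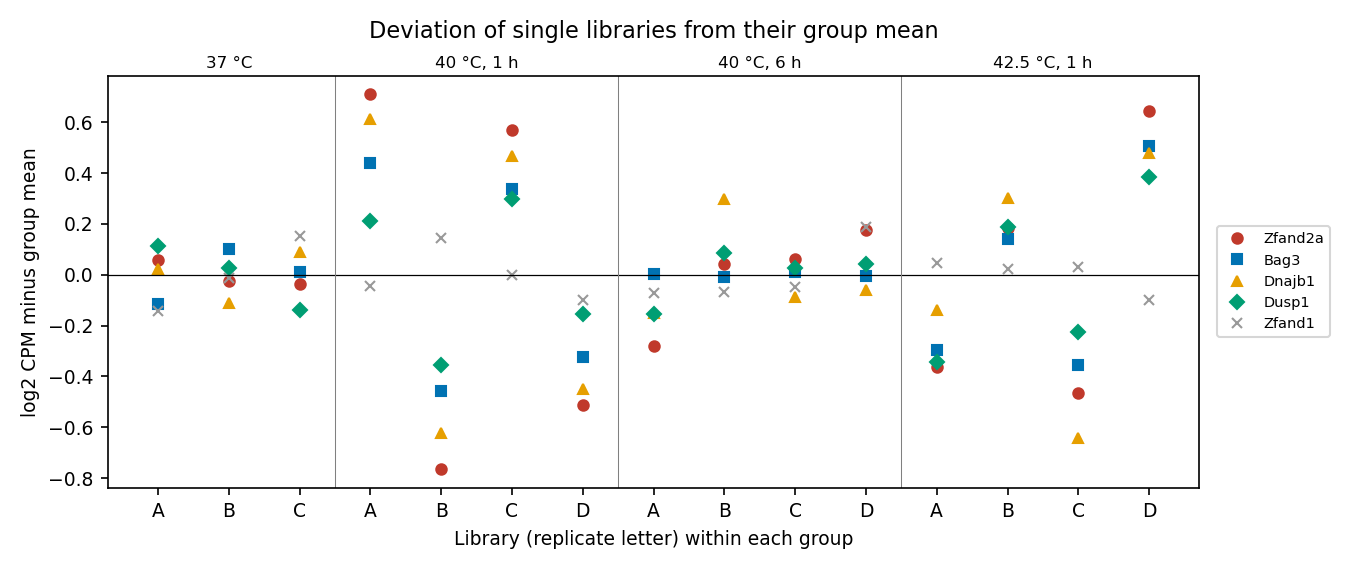
Deviation of each used library from its group's mean in log2 CPM for Zfand2a, Bag3, Dnajb1, Dusp1 and Zfand1. In the groups heated for 1 h the first 4 genes lie on the same side of their group mean in each library, while Zfand1 stays within 0.19 of it throughout.

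Over the 15 libraries, the genes whose log2 CPM was most like that of Zfand2a were Dusp1 (Pearson r = 0.991), Bag3 (0.987), Nuak2 (0.983), Hbegf (0.979), Dnajb1 (0.978), Tbcel (0.967), Id1 (0.958), Ccser2 (0.957), Cpeb4 (0.956) and Kcnk5 (0.955), among 9465 genes with a name in the files. Dusp1 encodes a phosphatase of MAP kinases, Nuak2 a stress-responsive kinase, and Hbegf a ligand of the EGF receptor. These correlations describe 15 points that share 4 group means, and the high 42.5 °C group weighs most in them.

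Dusp1 had a mean of 44.5 ± 3.92 CPM (SD, n = 3) at 37 °C, 67.8 ± 14.1 CPM (n = 4) after 1 h at 40 °C, 38.3 ± 2.76 CPM (n = 4) after 6 h and 219 ± 51.9 CPM (n = 4) at 42.5 °C, the same order of groups as Zfand2a. Hbegf had 20.5 ± 2.64, 26.6 ± 3.30, 17.1 ± 1.12 and 67.8 ± 14.8 CPM in the same groups, again in that order. Both genes were chosen for likeness to Zfand2a in these libraries, so the shared order largely follows from the choice.

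With each group's mean subtracted, so that only the deviations of single libraries remained, the 10 genes most like Zfand2a were Bag3 (r = 0.953), Clk1 (0.934), Peli1 (0.931), Dnajb1 (0.931), Dusp1 (0.926), Zfp715 (0.906), Pigw (0.889), Zbtb1 (0.885), Slc25a25 (0.883) and Six4 (0.875). Clk1 encodes a kinase of splicing factors and Peli1 an E3 ubiquitin ligase. Bag3, Dnajb1 and Dusp1 were in both lists of 10. None of the other ZFAND genes was in either list: their r with Zfand2a ran from -0.54 to 0.78 before and from -0.25 to 0.45 after the group means were subtracted.

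The 6 other members showed 1 call against 37 °C, a fall of Zfand1. After 1 h at 40 °C edgeR called 0 of the 6, with 1 of them at an unadjusted p under 0.05 and 0 called by DESeq2, where 0.334% of all 10494 genes tested were called (0.276% higher and 0.0572% lower). After 6 h at 40 °C it called 1 of the 6, lower, where 3.11% of 10499 genes were called (1.45% higher and 1.66% lower). At 42.5 °C it called 0 of the 6, with 2 at an unadjusted p under 0.05 and 0 called by DESeq2, where 7.51% of 10470 genes were called (2.83% higher and 4.68% lower). Of all genes tested, 1556 after 1 h at 40 °C and 5305 at 42.5 °C were at an unadjusted p under 0.05.

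**Figure D3:**
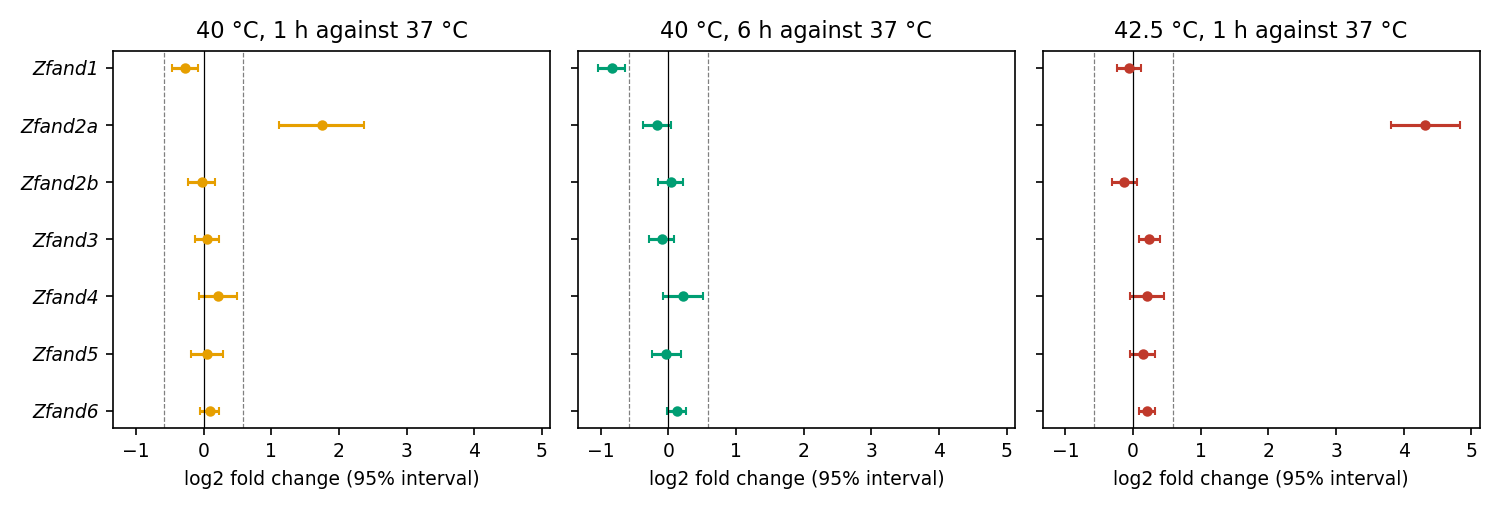
log2 fold change against 37 °C of the 7 members with 95% intervals from the edgeR fit, for each heated group on a common axis. Dashed lines mark 1.5-fold. Zfand2a lies far to the right after 1 h at 40 °C and at 42.5 °C, Zfand1 lies left of the line after 6 h at 40 °C, and the 5 others lie between the lines.

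Zfand1 fell in the cells held at 40 °C for 6 h. Its CPM at 37 °C was 20.8, 22.8 and 25.5 in replicates A to C, and 28.0 in replicate D. After 6 h at 40 °C it was 12.2, 12.2, 12.4 and 14.6. All 4 libraries of the 6 h group lay below all libraries of the other groups, though the share of all genes so separated was not computed. In cultures measured in bulk, fewer cells with a transcript and less transcript per cell cannot be told apart.

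The Zfand1 level after 1 h at 40 °C was 18.3, 20.9, 18.8 and 17.6 CPM, just touching the control range, and at 42.5 °C it was 22.8, 22.4, 22.5 and 20.6 CPM, within it but for 1 library. The group means were 23.0 ± 2.39 CPM (SD, n = 3) at 37 °C, 22.1 ± 0.994 CPM (n = 4) at 42.5 °C, 18.9 ± 1.41 CPM (n = 4) after 1 h at 40 °C and 12.8 ± 1.17 CPM (n = 4) after 6 h. The first 3 groups in this order overlapped with their neighbours.

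The log2 fold change of Zfand1 after 6 h at 40 °C was -0.84 ± 0.0972 (SE), a fold of 0.559 with a 95% interval of 0.485 to 0.644 and an edgeR adjusted p of 1.258e-05. With all 4 controls it was -0.92, with an edgeR adjusted p of 0.002523. A test against a fold change of 1.5 itself, edgeR's glmTreat, did not call it. After 1 h at 40 °C the value was -0.28 ± 0.0883 (edgeR adjusted p = 0.14188) and at 42.5 °C -0.07 ± 0.0840 (adjusted p = 0.55114), where the 95% interval of the fold was 0.844 to 1.08.

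The heated groups differed in Zfand1 when set against each other. Its level at 42.5 °C was 1.71-fold that after 6 h at 40 °C, a log2 difference of 0.77 ± 0.0875 with an edgeR adjusted p of 2.3816e-06, and it was the 1 call among the 6 members, where 8.25% of all genes tested were called. Between 6 h and 1 h at 40 °C the log2 difference was -0.56 ± 0.0903, with an edgeR adjusted p of 0.00062641, but the fold of 0.680 stayed just under the 1.5-fold threshold. It passed that threshold without 40 °C 1 h replicate D (-0.59) or without 40 °C 6 h replicate D (-0.63). In that comparison edgeR and DESeq2 each called 0 of the 6 members, with 1 of them at an unadjusted p under 0.05. Of all 10439 genes tested there, 1.28% were called and 3370 were at an unadjusted p under 0.05. Between 42.5 °C and 40 °C for 1 h the log2 difference of Zfand1 was 0.21 ± 0.0776, with an edgeR adjusted p of 0.041507 and a fold of 1.16. There edgeR and DESeq2 each called 0 of the 6 members, with 3 at an unadjusted p under 0.05. Of all 10441 genes tested, 5.27% were called and 4793 were at an unadjusted p under 0.05.

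**Figure D4:**
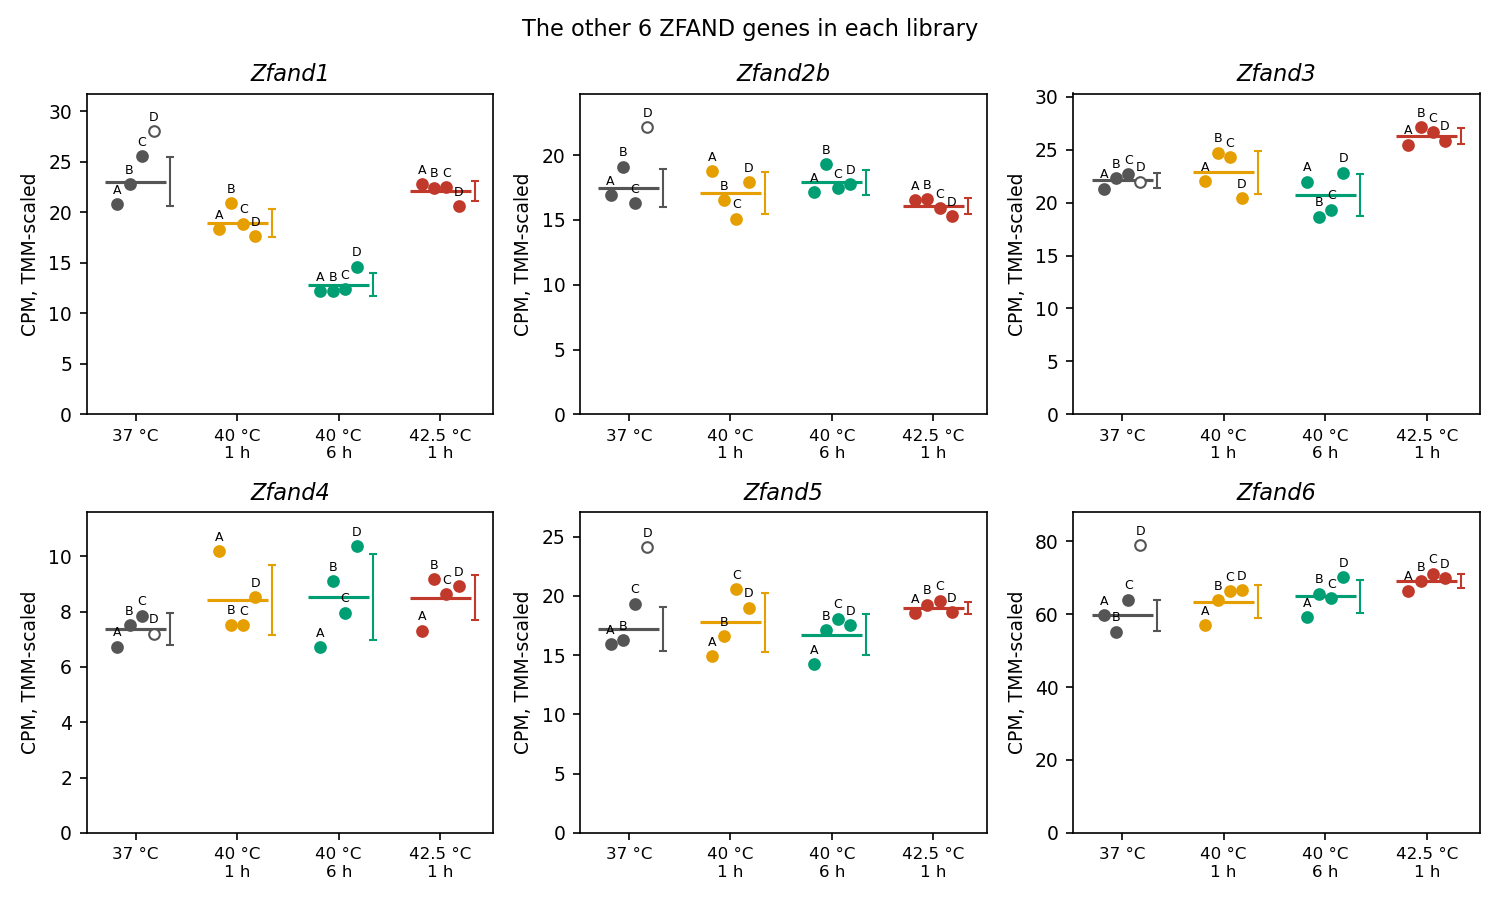
TMM-scaled CPM of the 6 other ZFAND genes in each library, on linear axes from 0. Points carry replicate letters, horizontal bars are means and vertical bars SDs of the used libraries, and the open point is 37 °C replicate D. The 4 Zfand1 values after 6 h at 40 °C, from 12.2 to 14.6 CPM, lie below all others.

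The 5 genes whose log2 CPM was most like that of Zfand1 over the 15 libraries were Alg5 (r = 0.963), Txnrd1 (0.963), Polr3b (0.960), Herc3 (0.960) and Sord (0.959). Txnrd1 encodes a thioredoxin reductase and Alg5 an enzyme that makes a sugar donor for protein glycosylation. Txnrd1 had 1369 ± 33.6 CPM (SD, n = 3) at 37 °C, 1292 ± 32.4 CPM (n = 4) after 1 h at 40 °C, 1044 ± 42.0 CPM (n = 4) after 6 h and 1368 ± 4.88 CPM (n = 4) at 42.5 °C. All 5 genes had their lowest group mean after 6 h at 40 °C, which largely follows from choosing them for likeness to Zfand1 in these libraries.

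Zfand2b, also known as AIRAPL, is the relative of Zfand2a that associates with the endoplasmic reticulum, and its level moved little. Its group means were 17.4 ± 1.48 CPM (SD, n = 3) at 37 °C, 17.1 ± 1.61 CPM (n = 4) after 1 h at 40 °C, 17.9 ± 0.975 CPM (n = 4) after 6 h and 16.1 ± 0.602 CPM (n = 4) at 42.5 °C. At 42.5 °C its 4 libraries read 16.5, 16.6, 15.9 and 15.3 CPM against 16.9, 19.1 and 16.3 CPM in the controls, with overlap. The 95% interval of its fold against 37 °C was 0.853 to 1.13 after 1 h at 40 °C (edgeR adjusted p = 0.92427), 0.898 to 1.17 after 6 h (0.81179) and 0.804 to 1.04 at 42.5 °C (0.24914). The folds of Zfand2a in the same 3 comparisons were 3.35, 0.891 and 19.96.

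Among the members with an A20-type finger, Zfand3 and Zfand6 were slightly higher at 42.5 °C, below the threshold for a call. Zfand3 is a nuclear regulator linked to glucose metabolism in other cells. Its CPM was 21.3, 22.3 and 22.7 at 37 °C and 25.5, 27.1, 26.7 and 25.9 at 42.5 °C. All 4 libraries at 42.5 °C lay above all libraries of each other group, a separation whose share over all genes was not computed. The log2 fold change against 37 °C was 0.24 ± 0.0701 (SE), with an edgeR adjusted p of 0.011226 and a fold of 1.18.

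Zfand3 after 1 h at 40 °C was at 22.0, 24.7, 24.3 and 20.4 CPM (log2 fold change 0.05, edgeR adjusted p = 0.83294), and after 6 h at 22.0, 18.7, 19.3 and 22.8 CPM (-0.10, adjusted p = 0.41698). Both groups overlapped the controls. Between 42.5 °C and 6 h at 40 °C its log2 difference was 0.34 ± 0.0800, with an edgeR adjusted p of 0.0023283.

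Zfand6, also known as AWP1, is known to bind TRAF proteins and to help recycle the import receptor of peroxisomes. Its CPM was 59.7, 55.2 and 64.0 at 37 °C and 66.5, 69.1, 71.1 and 69.8 at 42.5 °C, with no overlap. How many of all genes separate in this way was not computed. The log2 fold change was 0.21 ± 0.0566 (SE), with an edgeR adjusted p of 0.0078291. This rested on the choice of controls: replicate D of 37 °C was at 78.9 CPM, above all libraries at 42.5 °C, and with all 4 controls the log2 fold change was 0.11 with an edgeR adjusted p of 0.46593. After 1 h and after 6 h at 40 °C the means were 63.4 ± 4.49 and 64.9 ± 4.50 CPM (SD, n = 4), and the edgeR adjusted p was 0.56484 and 0.17626.

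Zfand5, or ZNF216, activates the proteasome and is known from muscle wasting. Its CPM was 15.9, 16.3 and 19.3 at 37 °C, 14.9, 16.6, 20.6 and 19.0 after 1 h at 40 °C, 14.2, 17.1, 18.1 and 17.5 after 6 h, and 18.5, 19.2, 19.6 and 18.6 at 42.5 °C. Each heated group overlapped the controls. The fold against 37 °C had 95% intervals of 0.878 to 1.22, 0.844 to 1.13 and 0.969 to 1.26 in these heated groups, with edgeR adjusted p of 0.88431, 0.84447 and 0.20573.

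Zfand4 had the lowest counts of the family. It was at 6.74, 7.52 and 7.85 CPM at 37 °C, 10.2, 7.52, 7.51 and 8.53 after 1 h at 40 °C, 6.71, 9.11, 7.97 and 10.4 after 6 h, and 7.32, 9.18, 8.63 and 8.91 at 42.5 °C. The groups overlapped. The log2 fold changes against 37 °C were 0.21, 0.22 and 0.20, with edgeR adjusted p of 0.49148, 0.25798 and 0.18506, and the 95% intervals reached a fold of 1.40, 1.43 and 1.38.

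The other genes of the pathways around the family were read from lists that were chosen with earlier results of these data known. Of HSF1-linked heat shock genes, 19 of 21 found were tested. After 1 h at 40 °C, 4 rose and 0 fell: Dnajb1 by 1.63 on the log2 scale, the small heat shock protein Hspb1 by 1.11, Hsph1 by 1.08 and Bag3 by 0.86, with edgeR adjusted p of 0.0033381, 0.00067594, 0.004413 and 0.01568. With all 4 controls, or with glmTreat, 0 of them were called. Of all genes tested, 0.276% after 1 h at 40 °C, 1.45% after 6 h and 2.83% at 42.5 °C were called higher. After 6 h, 7 rose (2 with glmTreat) and 0 fell, led by Hspb1 (1.53) and Hsph1 (1.21), then the collagen chaperone Serpinh1 (0.86) and Ahsa2, an activator of Hsp90 (0.80). At 42.5 °C, 10 rose (9 with all 4 controls) and 0 fell, led by Dnajb1 (3.79), Hspb1 (2.98), Hsph1 (2.96) and Bag3 (2.75).

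**Figure D5:**
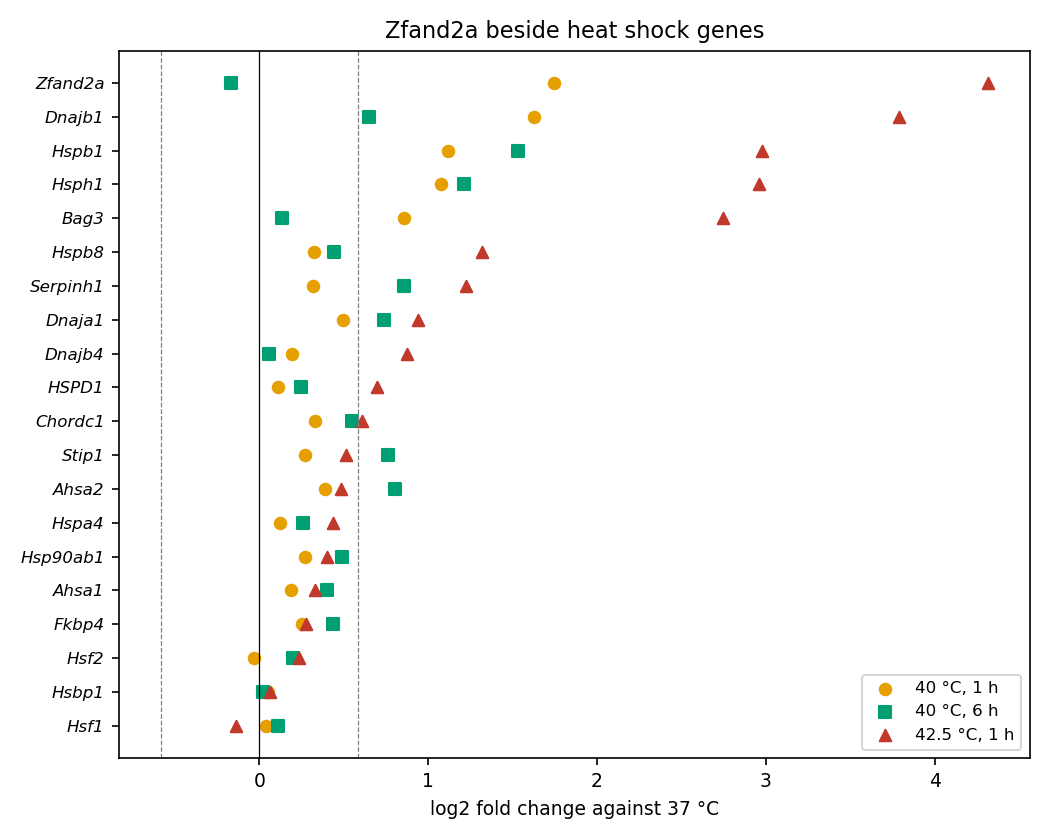
log2 fold change against 37 °C of Zfand2a and of the 19 tested HSF1-linked genes, in the 3 heated groups, ordered by the value at 42.5 °C. Dashed lines mark 1.5-fold. After 6 h at 40 °C, Zfand2a is at -0.17 and Bag3 at 0.14, while Hspb1 is at 1.53 and Hsph1 at 1.21.

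The heat shock genes did not all follow the time course of Zfand2a at 40 °C. From 1 h to 6 h, 2 of the 19 fell, Dnajb1 by 0.97 and Bag3 by 0.72 on the log2 scale (0 with glmTreat), and Zfand2a was lower by 1.90. In that comparison 1.28% of all genes tested were called in either direction. Hspb1 and Hsph1 had differences of 0.42 ± 0.199 (SE, edgeR adjusted p = 0.15535) and 0.14 ± 0.186 (adjusted p = 0.64846), and Serpinh1 was higher by 0.54 ± 0.0964 (adjusted p = 0.0012815), under the 1.5-fold threshold. The median of the list against 37 °C was 0.27, 0.44 and 0.61 in the 3 heated groups, against 0.00 over all genes tested.

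No gene of the listed partners, VCP and the proteasome, was called against 37 °C. For VCP and its cofactors, 0 of 23 tested genes were called in each comparison with 37 °C, with 1, 11 and 14 at an unadjusted p under 0.05 after 1 h at 40 °C, 6 h at 40 °C and at 42.5 °C, and 0 called by DESeq2 in each. Of all genes tested in these comparisons, 1556 of 10494, 4300 of 10499 and 5305 of 10470 were at an unadjusted p under 0.05. The shares called were 0.334%, 3.11% and 7.51%. Vcp itself had log2 fold changes of 0.04, 0.04 and 0.15, the last with an edgeR adjusted p of 0.0030175. For the proteasome subunits, 0 of 29 were called, with 0, 5 and 13 at an unadjusted p under 0.05 and 0 by DESeq2. Psmd4, a ubiquitin receptor of the proteasome, had 0.03, -0.08 and 0.04, and the ATPase subunit Psmc2 had 0.04, 0.06 and 0.07.

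Stress granule proteins gave 0 calls of 20 in each comparison with 37 °C, with 4, 11 and 12 genes at an unadjusted p under 0.05 and 0 by DESeq2. Of all genes tested there, 0.334%, 3.11% and 7.51% were called. Under an unadjusted p of 0.05 were 1556 of 10494, 4300 of 10499 and 5305 of 10470. The ubiquitin precursor and activating enzyme list had 4 tested genes and 0 calls, with 0, 1 and 3 at an unadjusted p under 0.05 and 0 by DESeq2. Between 42.5 °C and 6 h at 40 °C, Vcpip1 (-0.60), a deubiquitinase of the VCP list, and Ddx6 (-0.66), an RNA helicase of the stress granule list, were called lower. In that comparison 8.25% of all genes tested were called in either direction. With glmTreat both lists had 0 calls there, and the VCP list had 0 without 42.5 °C replicate C.

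Of the genes known for the response to arsenite and oxidants, 14 of 15 found were tested. In the 40 °C 1 h group edgeR called 0, with 3 at an unadjusted p under 0.05 and 0 by DESeq2. Of all 10494 genes tested there, 0.334% were called and 1556 were at an unadjusted p under 0.05. After 6 h at 40 °C, 2 fell, the cystine transporter Slc7a11 by 1.03 and the metallothionein MT1 by 0.82 on the log2 scale (edgeR adjusted p of 0.00026517 and 0.020863), where 1.66% of all genes were called lower. DESeq2 called 1 gene of the list, as did edgeR without 37 °C replicate B or without 37 °C replicate C, and glmTreat called 0. At 42.5 °C, 2 rose, the zinc exporter Slc30a1 by 1.39 and the antioxidant gene Srxn1 by 0.91 (adjusted p of 5.6437e-06 and 8.1965e-06), where 2.83% of all genes were called higher. Hmox1, the heme oxygenase often used as a marker of arsenite stress, had log2 fold changes of 0.11, 0.01 and 0.13 with edgeR adjusted p of 0.3369, 0.91716 and 0.31008.

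Of the A20-domain and TRAF-linked genes, 15 of 16 found were tested. The 40 °C 1 h group had 0 calls by edgeR, with 2 at an unadjusted p under 0.05 and 0 by DESeq2. Of all 10494 genes tested there, 0.334% were called and 1556 were at an unadjusted p under 0.05. After 6 h at 40 °C the ubiquitin ligase Birc3 fell by 0.63 (edgeR adjusted p = 5.7866e-05), 1 of 15 where 3.11% of all genes were called. The count was 0 without 40 °C 6 h replicate B and with glmTreat, and 2 without 40 °C 6 h replicate A. At 42.5 °C, Tnfaip3, the gene of A20 itself, rose by 1.06 and Traf6 by 1.04, and Birc3 fell by 0.65 (adjusted p of 4.7668e-05, 1.7666e-05 and 0.00011997), 3 of 15 where 7.51% of all genes were called. With glmTreat 2 were called, and also with the letters as a replicate block.

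By gene order in the RefSeq annotation of another assembly, CriGri-PICRH-1.0, the nearest genes on either side of Zfand2a that were matched in the count matrix are Gper1 and Micall2, each 2 places away. Gper1, a membrane estrogen receptor, was at no more than 0.316 CPM in any used library and was not tested. Micall2, a regulator of cell junctions, had log2 fold changes of -0.03, -0.23 and -0.46 against 37 °C in the 3 heated groups and was not called in any of them. Its edgeR adjusted p was 0.8796, 0.058505 and 5.1091e-05, so at 42.5 °C only the 1.5-fold threshold was missed. The neighbours of Zfand1, Chmp4c and Slc10a5, were each at no more than 0.177 CPM in any used library and were not tested.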

How the data were processed

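RNA of 16 CHO libraries was sequenced. Per the paper, the authors used CLC Genomics Workbench for trimming, for mapping to the CHOK1GS_HDv1 build of the Chinese hamster genome and for counting. They deposited raw read counts per gene, whole numbers without normalization. The CLC version, annotation release, strand setting and treatment of reads with several mapping places are not given in the sources used here, so genes that overlap or share sequence may exchange reads. Replicate letters are described as biological repeats.

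Groups were compared on the deposited counts with edgeR 4.0.16 in R 4.3.3: TMM scaling, filterByExpr defaults, glmQLFit and glmQLFTest on the libraries of the 2 groups, Benjamini-Hochberg adjustment over all genes tested, and calls at an adjusted p under 0.05 with a fold of at least 1.5. The 15 libraries used are those whose counts match the study's supplementary count table. SE is the log2 fold change over the square root of F. CPM values use TMM over all groups, and log2 CPM a prior count of 2. DESeq2 1.42.0, other filters and scalings, and single libraries left out served as alternatives.

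Named are all 7 members, the genes most like Zfand2a (10 by each measure) and Zfand1 (5), up to 4 called genes per list and preset partners, and RefSeq neighbours. Where a list's called genes exceed 4 the largest changes are named. The members and lists were chosen with earlier results of these data known. The genes Hspa8 and G3bp1 were not matched by name. Sequences and transcript lengths were not used here.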

Additional observations from a re-analysis of the deposited data

Results flagged for a closer look

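In a set of 4 libraries, a single value can lie far from the 3 others. By Dixon's criterion at 95%, this held for 2 of the 28 sets of members and groups, counted with all 4 controls, and chance alone flags about 1 in 20. Zfand1 was at 14.6 CPM in 40 °C 6 h replicate D, where its gap to the nearest library was 0.916 of the group's range, and at 20.6 CPM in 42.5 °C replicate D, where it was 0.835. The first value was still below all libraries of the other groups. Both libraries carry the letter D, and the sources do not say whether a letter links cultures.

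Direct edgeR tests between the heated groups gave an adjusted p under 0.05 for 3 differences of Zfand1 and 1 of Zfand3. Of these, 1 reached a 1.5-fold change. A background count by the adjusted p alone was not made, so these differences are not read as particular to the family. Low unadjusted edgeR p values, under 0.05, were frequent: 3370 of 10439 genes for 6 h against 1 h at 40 °C. For 42.5 °C they were found in 4793 of 10441 genes against the 1 h group and 5615 of 10427 against the 6 h group. For Zfand1 the log2 difference was -0.56 between 6 h and 1 h at 40 °C, 0.21 between 42.5 °C and 1 h at 40 °C, and 0.77, the called one, between 42.5 °C and 6 h at 40 °C. The libraries of 42.5 °C and of 1 h at 40 °C overlapped, and the adjusted p of that difference, 0.041507, ran from 0.0214 to 0.10001 over its alternatives. For Zfand3 the difference between 42.5 °C and 6 h at 40 °C was 0.34, with all 4 libraries at 42.5 °C above all 4 at 6 h.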

How the results depend on the processing

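The counts of called members were recomputed 96 times under alternatives, and 88 stayed near the value given. With edgeR's glmTreat there were 0 calls after 6 h at 40 °C and 0 between 42.5 °C and 6 h at 40 °C. With the adjusted p alone there were 2 at 42.5 °C (Zfand3 and Zfand6), 1 between 6 h and 1 h at 40 °C, 1 between 42.5 °C and 1 h at 40 °C, and 2 between 42.5 °C and 6 h at 40 °C. The share of all genes passing by the adjusted p alone was not computed, so these counts are not read as a trait of the family. In the same order, 5305 of 10470, 3370 of 10439, 4793 of 10441 and 5615 of 10427 genes had an unadjusted edgeR p under 0.05. With 1 library left out, the count between 6 h and 1 h at 40 °C ran from 0 to 1, the 1 being Zfand1 without replicate D of either group.

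Of 588 recomputed log2 fold changes, 27 changed sign, all of them of values near 0 that were not called. With all 4 controls, Zfand5 and Zfand6 went to -0.0877 and -0.0214 after 1 h at 40 °C and Zfand2b to -0.0570 after 6 h. Zfand4 between 42.5 °C and 1 h at 40 °C was 0.0019 with DESeq2's size factors, 0.0034 with its Wald test, 0.0033 with a minimum-count filter and 0.0039 with 1 fit over all groups. With 1 library left out, the ranges that crossed 0 were, for Zfand4, -0.0942 to 0.127 between 6 h and 1 h at 40 °C, -0.112 to 0.0905 between 42.5 °C and 6 h, and -0.0544 to 0.107 between 42.5 °C and 1 h. For Zfand5 they were -0.0273 to 0.135 after 1 h and -0.0799 to 0.0568 after 6 h at 40 °C, for Zfand2b -0.0825 to 0.0432 and -0.0084 to 0.110, for Zfand6 between 6 h and 1 h -0.0140 to 0.0766, and for Zfand1 at 42.5 °C -0.138 to 0.0108. The causes were not tested.

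The deviations of same-letter libraries had a mean correlation of 0.0483, with values from -0.0495 to 0.172 over 21 pairs. For pairs of different letters the mean was -0.0161. The sources do not say whether a letter links cultures, and these correlations cannot decide it. With the letter as a replicate block, 0, 1 and 0 members were called against 37 °C, and the fall of Zfand1 after 6 h at 40 °C was -0.91 with an edgeR adjusted p of 5.5599e-05.

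The spread of Zfand2a in the groups heated for 1 h limits its fold changes. Over the alternatives its log2 fold change ran from 1.48 to 1.95 after 1 h at 40 °C and from 4.05 to 4.46 at 42.5 °C. Of the 6 tested members, Zfand4 had the lowest counts and the widest intervals against 37 °C.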

Other observations

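In 37 °C replicate D, which enters no main comparison, Zfand1 (28.0 CPM), Zfand2b (22.2), Zfand5 (24.1) and Zfand6 (78.9) lay above the 3 other controls. In this library 17.8% of genes differed by 1.5-fold or more from the other controls. The share of all genes above the other controls was not computed, so this is not read as a trait of the family. Zfand2a (19.5 CPM), Zfand3 (22.0) and Zfand4 (7.21) lay within the range of the others.

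Within the groups heated for 1 h, the kinase gene Clk1 had 224, 147, 225 and 178 CPM in replicates A to D at 40 °C and 221, 281, 200 and 313 CPM at 42.5 °C. At 42.5 °C its order of libraries was the one of Zfand2a, and at 40 °C the first 2 libraries, A and C, changed places.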
